A study of Mus musculus with 16 samples.

Results

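The 420 peaks described here are those over 100-fold in 8 lists of N6-methyladenosine (m6A) peaks from mouse liver, of 28297 peaks in all. They were chosen by the fold enrichment that the authors gave each peak within its own list, and 78 further peaks over 100-fold in Lars2, Oprm1, AA474408, Dnm3os, Vmp1, 2010111I01Rik and Rtl1 were left out. When peaks that shared at least 1 base within a gene were merged, the 420 peaks lay at 128 sites of 17936 merged regions and in 104 of 8284 genes, or 1.26%. The livers came from 4 lean male mice with the strain label C57BL/6 and 4 male mice with the strain label db/db, in which the receptor for leptin is defective, so that the animals grow obese and diabetic. Fragmented total RNA was precipitated with an antibody against m6A and sequenced, and each mouse had its own list. The labels number the mice and say nothing more of how they were bred or paired, so p-values measure the spread between these mice. The fold is measured against the background that the authors took for that list, and it is used to describe, rank or filter peaks and to point out single mice far from the rest of their group.

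m6A is a methyl mark that a writer complex sets on adenosines of messenger and noncoding RNA, often within a short consensus that holds GGAC, and reader proteins bind it to alter splicing, decay or translation. Small nucleolar RNAs (snoRNAs) are cut from introns of host genes and guide the chemical modification of ribosomal RNA. The liver secretes major urinary proteins and other products of gene clusters whose members are close copies of each other. A peak list names the annotated gene at a position, and a small RNA inside another gene can therefore be listed under that gene.

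Of the 128 sites, 23 overlapped an annotated small RNA gene of up to 400 bases, and 3 of these held a microRNA hairpin. The mature microRNAs are shown because the peaks cover them almost whole. Sequences are from RefSeq on GRCm38.p6 (the same coordinates as mm10), 5′ to 3′, and capitals mark the seed, bases 2 to 8. miR-331 lies in Vezt, a gene of cell junctions, on the minus strand at chr10:93963768-93963863. miR-671 lies in Chpf2, an enzyme of chondroitin synthesis, on the plus strand at chr5:24592114-24592211. miR-10a is listed under Hoxb4 and lies within the bounds of Hoxb3, both transcription factors of the body axis, on the plus strand at chr11:96317165-96317274.
mmu-miR-331-3p: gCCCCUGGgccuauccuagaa
mmu-miR-331-5p: cUAGGUAUggucccagggaucc
mmu-miR-671-5p: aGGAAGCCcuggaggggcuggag
mmu-miR-671-3p: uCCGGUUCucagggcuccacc
mmu-miR-10a-5p: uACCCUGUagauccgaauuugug
mmu-miR-10a-3p: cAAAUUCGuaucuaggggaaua
The 6 mature sequences share no seed. Each was whole inside the peak of all 8 mice, except miR-331-5p, which was whole in 7 of the 8. None of the 3 hairpins holds GGAC, which 24.5% of 1005 RefSeq hairpins hold on the transcribed strand.

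At 5 sites the listed region began at the first transcribed base of its gene in RefSeq. They were picked after the sites were seen and are shown for that edge. Capitals are the first bases of the site, up to 30 of them, and the 10 lower-case bases lie before the start of transcription. The printed bases are those of Tgfb1, a cytokine of fibrosis, at chr7:25687002-25687031 (plus strand), Klhl2, an adaptor of ubiquitin ligases, at chr8:64849895-64849924 (minus), Steap2, a metalloreductase, at chr5:5694066-5694089 (minus), Kat7, a histone acetyltransferase, at chr11:95310217-95310246 (minus), and Cyp4a32, of a family of fatty acid hydroxylases, at chr4:115600938-115600967 (plus), all on GRCm38.p6.
Tgfb1: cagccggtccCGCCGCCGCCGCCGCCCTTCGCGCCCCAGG
Klhl2: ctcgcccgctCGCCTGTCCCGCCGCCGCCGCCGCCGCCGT
Steap2: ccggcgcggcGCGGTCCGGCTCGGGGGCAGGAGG
Kat7: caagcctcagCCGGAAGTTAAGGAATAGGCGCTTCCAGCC
Cyp4a32: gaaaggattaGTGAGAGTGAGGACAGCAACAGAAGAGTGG
Of the 14 sites over the first 50 transcribed bases of their gene, Tgfb1 and Klhl2 hold GCCGCCGCC, searched on both strands. That run is in the first 50 bases of 1.61% of 32851 RefSeq start windows. It is visible in the bases printed here, so the share is no test of it. GGAC, searched on the transcribed strand, is in the stretch of 5 of the 14, Cyp4a32 among them, and in 18.9% of all windows. Sites can cover few of the 50 bases, 9 of them at Pradc1, so sites and windows are not of like length. A match is a description of the letters and not of a bound or methylated base.

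The small nuclear RNA at one site is shown because the peak lies on a gene for a different RNA than its name says. Rnu7, the U7 small nuclear RNA that acts in the end processing of histone messengers, lies at chr6:124741225-124741286 on the minus strand (GRCm38.p6) and its peaks are listed under Grcc10. Capitals mark the 62 bases of the gene.
Rnu7: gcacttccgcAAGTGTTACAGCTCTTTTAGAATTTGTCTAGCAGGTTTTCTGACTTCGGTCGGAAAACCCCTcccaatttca
The Grcc10 peak had a fold of 253.0, 205.36, 197.71 and 480.88 in db/db mice 1 to 4 and of 368.23, 391.52, 762.39 and 149.02 in lean mice 1 to 4. All 8 values were over 100-fold and the genotypes overlapped. The peak was 82 to 141 bases long in 7 mice and 359 bases long in lean mouse 4.

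The peaks over 100-fold numbered 73, 44, 35 and 41 in db/db mice 1 to 4 and 46, 52, 65 and 64 in lean mice 1 to 4. Db/db mouse 1 stood apart from the other db/db mice, and the remaining 3 lay below all lean mice. The means were 48.25 ± 16.92 for db/db and 56.75 ± 9.287 for lean mice (SD, n = 4 each), and the groups did not differ beyond their spread (two-sided exact permutation test over 70 assignments, p = 0.4). Without db/db mouse 1 the difference went from -8.5 to -16.75 peaks (exact permutation p = 0.0571). The peaks over 100-fold made up 0.9615% to 2.626% of a list. Whole lists held 2475 to 4807 peaks with a median fold of 9.685 to 13.01, and that of db/db mouse 1 was the longest. Sequencing depth was unknown, so that where no peak was listed the RNA could be unmethylated, scarce or covered by too few reads. In bulk liver, fewer cells of a type and less RNA per cell cannot be told apart. Peaks were listed for 3 of 10 hepatocyte markers, 5 of 6 Kupffer cell markers, 5 of 5 endothelial, 5 of 6 stellate cell, 3 of 4 cholangiocyte, 2 of 6 leukocyte and 0 of 3 adipocyte markers. No marker of these 7 lists had a site over 100-fold. Among all 8284 genes with a peak the share was 1.26%, so none among so few markers is no finding.

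Around the threshold, the lowest peaks included were Rpl4 in db/db mouse 1 at 100.22, Rab36 in lean mouse 4 at 100.26 and Mup4 in lean mouse 2 at 100.44. The highest peaks left out were Mup5 in db/db mouse 3 at 99.67, Tlcd1 in lean mouse 4 at 99.62 and Cyp2a4 in db/db mouse 1 at 99.58. At the Rab36 site the other 5 mice with a peak had folds of 9.06 to 15.66.

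The 128 sites were sorted into 5 kinds after their values had been seen. Besides the 23 sites over a small RNA gene, 7 lay within 100 bases of one. A further 41 lay in a gene with a protein-coding neighbour of the same symbol stem within 1 Mb, such as the major urinary protein (Mup) and cytochrome P450 (Cyp) clusters. Another 29 were narrow, at most 75 bases long, and 28 fitted none of these. The stem is a rule on names, and shared sequence was not tested. Small RNA sites gave 15 to 22 of the peaks in each mouse. Sites in same-stem genes gave 22, 3, 4 and 3 peaks in db/db mice 1 to 4 and 7, 15, 19 and 18 in lean mice 1 to 4. In this kind db/db mouse 1 was the highest of all 8 mice, and the other 3 db/db mice lay below every lean mouse.

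**Figure D1:**
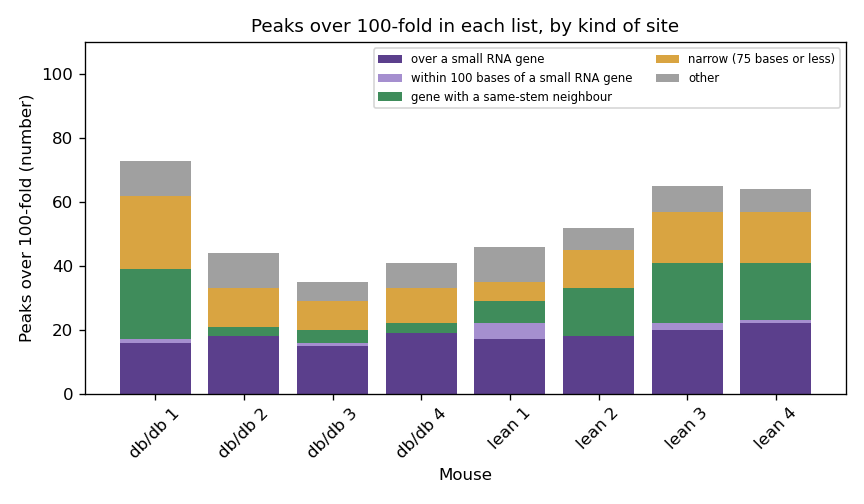
Stacked bars give the number of peaks over 100-fold in each mouse by kind of site. The small RNA part ranges only from 15 to 22 peaks, while the part from genes with a same-stem neighbour ranges from 3 to 22.

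The fold rule used each list by itself, and the peaks it took were shared between lists. A peak over 100-fold overlapped a peak in 6.404 ± 0.4292 of the 7 other lists (SD over lists, n = 8), against 1.712 ± 0.361 for the other peaks of the same list. Here and below, the other peaks of a list include those over 100-fold in the genes left out. The difference of 4.692 lists was in the same direction in 8 of 8 lists (exact sign-flip test, two-sided, p = 0.00781, the smallest it can give, adjusted over 4 tests p = 0.0104). Lists that share sites are not independent of each other in this comparison. A peak of high fold is in general easier to call again in another mouse than a weak one. Choosing by fold therefore favours this direction, so the p-value is no independent support. That limit also holds for the shares of sites below, and how much it accounts for was not tested. The difference was 4.484 without the peaks over small RNA genes, an alternative chosen after seeing the data. Of the 128 sites, 70, or 54.7%, had a peak in all 8 lists, against 0.848% of the 17808 other regions. In contrast, 77.1% of the other regions and 7 of the 128 sites had a peak in 1 list.

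Being over 100-fold was shared less widely than having a peak. Sites over 100-fold in 1, 2, 3 and 4 lists numbered 52, 17, 8 and 14, and those in 5, 6, 7 and 8 lists 9, 6, 6 and 16. Of the 52 sites over 100-fold in 1 list, 14 had a peak in all 8. By itself, db/db mouse 1 gave 25 of the 52, and no other mouse gave more than 7. Small RNA sites were over 100-fold in 4 or more lists at 20 of 23, narrow sites at 15 of 29, same-stem sites at 9 of 41, and sites within 100 bases of a small RNA at 0 of 7.

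**Figure D2:**
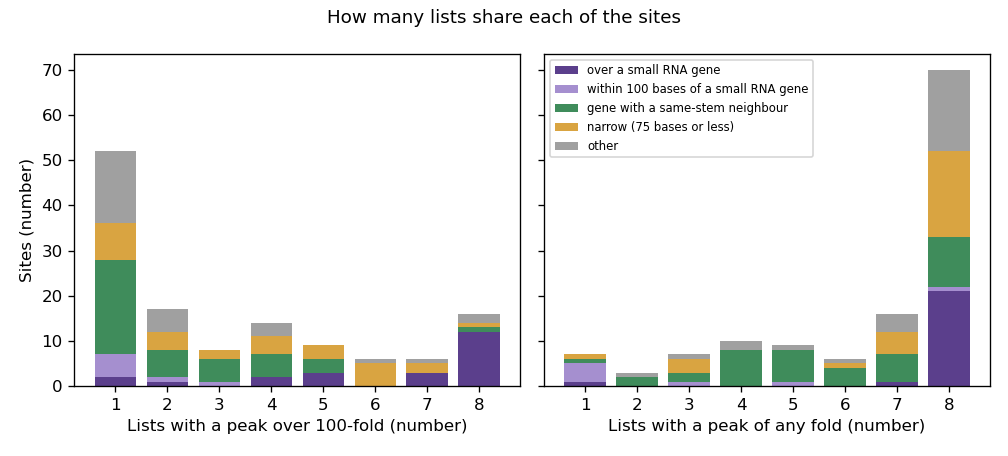
Bars count the 128 sites by the number of lists with a peak over 100-fold (left) and with a peak of any fold (right), coloured by kind of site. On the left 52 sites fall in 1 list and 16 in all 8, of which 12 are over a small RNA gene, and on the right 70 sites fall in all 8.

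Overlap with a small RNA gene was found for 36.09% ± 7.644 of the peaks over 100-fold and 0.7929% ± 0.1792 of the other peaks of the same lists (SD, n = 8), a contrast known before the sites were described. The difference was 35.3 percentage points, and 40.59 with the left-out genes kept among the peaks over 100-fold. Of 4115 annotated small RNA genes, 66 had a peak of any fold and 23 a peak over 100-fold outside the 7 genes left out. By type, with those genes again left out from the peaks over 100-fold, 15 of the 23 snoRNAs with a peak had one over 100-fold, as did both rRNAs, 2 of 3 tRNAs, the single small nuclear RNA and 3 of 37 microRNAs. The sites over small RNA genes had a peak in all 8 lists at 21 of 23. As merged sites, each spanning its peaks in all lists, they had a median length of 164.0 bases, which is not the length of single peaks.

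Several snoRNA sites lay in genes of ribosome production or of RNA handling. Ddx39b (gene ID 53817), an RNA helicase of messenger export, carried the snoRNA LOC115488830 under a site at chr17:35242665-35242776. Its folds were 795.08, 472.46, 1225.45 and 1317.69 in db/db mice 1 to 4 and 1734.38, 685.85, 815.57 and 2035.61 in lean mice 1 to 4. The lowest value was in db/db mouse 2 and the 2 highest in lean mice, and the genotypes overlapped. Rps12 (20042), a protein of the small ribosomal subunit, had folds of 332.14, 849.02, 977.37 and 491.72 in the db/db mice and of 1679.55, 563.12, 687.16 and 796.32 in the lean mice over LOC115487513. Lean mouse 1 was highest there, and the other 3 lean mice lay among the db/db mice.

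A pair of sites listed under AK085695 lay within Ppan, a gene of ribosome assembly, over the snoRNAs LOC115487308 and LOC115487312. At the first, chr9:20889473-20889579, folds were 830.65, 436.66, 788.11 and 788.19 in the db/db mice and 1675.97, 689.27, 1640.92 and 1088.58 in the lean mice. At the second, chr9:20890740-20890926, they were 488.8, 783.57, 326.54 and 375.3 in the db/db mice and 1848.8, 148.8, 461.04 and 1288.08 in the lean mice. Lean mouse 1 was the highest mouse at both, db/db mouse 2 was the lowest mouse at the first and lean mouse 2 at the second, so the order of the mice was not the same at neighbouring snoRNAs.

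Rabggtb (19352), a subunit of the enzyme that adds lipid anchors to Rab proteins, held Snord45c and had folds of 362.44 to 776.56 among db/db and 425.22 to 1177.19 among lean mice. Gnb2l1, now Rack1, a scaffold protein on the ribosome, held Snord96a with 184.4 to 498.5 among db/db and 350.72 to 1124.62 among lean mice. Taf1d (75316), part of the initiation factor of ribosomal RNA transcription, held LOC115487282 with 206.8 to 764.84 among db/db and 335.09 to 815.54 among lean mice. At these 3 genes the genotypes overlapped, and the highest mouse was a lean one.

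Rpl13a (22121), a protein of the large ribosomal subunit, had 2 sites. Over Snord32a it had no peak in db/db mouse 1, folds of 277.51, 294.24 and 498.88 in db/db mice 2 to 4, and 1633.3, 692.82, 747.9 and 1007.78 in lean mice 1 to 4. There the 4 lean mice all lay above the 3 db/db mice with a peak. Over Snord34 the folds were 78.91 to 129.85 among db/db and 62.7 to 156.62 among lean mice, and the genotypes overlapped.

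The host gene Snhg16, listed as 1810032O08Rik (66293), is a noncoding RNA known as a source of snoRNAs and had 2 sites as well. Over Snord1a the folds were 18.69, 280.0, 224.0 and 514.77 in the db/db mice and 523.14, 277.6, 527.28 and 233.44 in the lean mice. Over Snord1b they were 6.79, 112.13, 312.72 and 299.62 in the db/db mice and 402.72, 137.66, 259.39 and 238.28 in the lean mice. Mouse 1 of the db/db group was the lowest at both snoRNAs and the only one under 100-fold, and the other 3 db/db mice overlapped the lean mice.

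The region of 2410002F23Rik (668661) on chromosome 7 held 3 snoRNA sites, 2 of them listed under Snord88a. At Snord88a itself the folds were 107.82 to 295.18 among db/db and 229.64 to 522.36 among lean mice. Over LOC115486841 they were 206.81, 116.83, 100.56 and 168.26 in the db/db mice and 343.16, 314.49, 281.74 and 254.1 in the lean mice. At LOC115486841 all 4 lean values lay above all 4 db/db values, each value being relative to its own list. Over LOC115486842 the folds were 78.01 to 107.69 among db/db and 100.85 to 262.8 among lean mice, with overlap. Tlcd1 (68385) was the name given to a site within Rpl23a over Snord42a, with 42.8 to 163.44 across the mice.

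Other small RNA types gave some of the highest folds. The site of Cdc23 (52563), a subunit of the anaphase-promoting complex, covered the 5S rRNA gene n-R5s25 at chr18:34647376-34647536. Its folds were 1780.37, 3660.3, 141.8 and 1079.09 in the db/db mice and 9115.84, 7405.3, 441.81 and 1017.16 in the lean mice. The highest fold was 64.29 times the lowest, with db/db mouse 3 lowest, lean mice 1 and 2 highest and the genotypes overlapping. Tmem38b (52076), an ion channel of internal membranes, covered the rRNA gene LOC115490001, with 1812.49 for db/db mouse 1, 779.19 for lean mouse 3 and 47.59 to 159.15 in the other 6 mice.

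Hes7 (84653), a transcription factor of somite formation, had a site over the tRNA gene n-TRtct4 at chr11:69123459-69123592. Folds there were 1904.84, 784.3, 191.04 and 1566.64 in the db/db mice and 281.79, 834.32, 1287.08 and 1069.49 in the lean mice. The genotypes overlapped, with the highest and the lowest value both in the db/db mice. At the microRNAs, the Vezt peak had 62.3 to 229.32 among db/db and 44.23 to 183.82 among lean mice, and the Chpf2 peak 46.86 to 154.53 and 55.24 to 176.79, with the genotypes overlapping at both. The Hoxb4 peak was over 100-fold in lean mouse 4 only, at 138.2. The peak over the miR-10a hairpin lay wholly within it in 5 of 8 mice, and the Chpf2 peak, 162 to 301 bases long, ran past the hairpin in every mouse.

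The 7 sites within 100 bases of a small RNA gene, but not over it, lay in Ncl, Rpl4, Eif4g1, Rpl17 and Eef2, all genes of ribosome assembly or translation. These were chosen after their values were seen. Lean mouse 1 gave 5 of the peaks over 100-fold here and no other mouse more than 2. Ncl, nucleolin, had 936.38 in mouse 3 of the db/db group, 1200.76 in lean mouse 1 and 1074.06 in lean mouse 4, each over the same 87 bases at 44 bases from Snord82, and no peak in the other 5 mice. Eif4g1, a scaffold of translation initiation, had 1762.6 and Rpl17, a ribosomal protein, 1659.97 in lean mouse 1 and no peak elsewhere. Eef2, an elongation factor of translation, had a peak of 212 bases in all 8 mice, with 42.1 to 101.46.

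**Figure D3:**
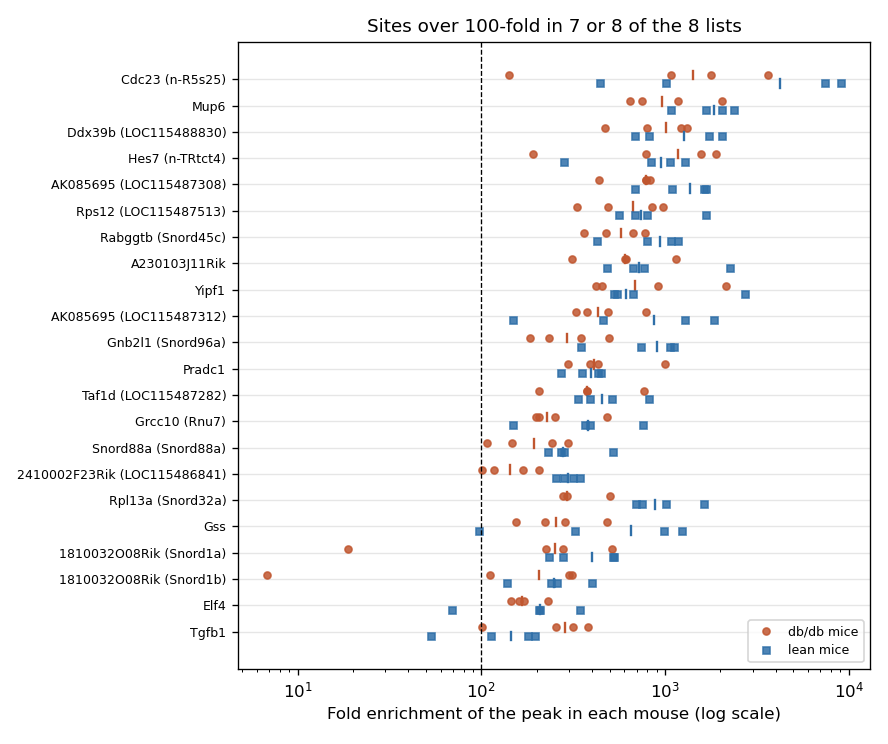
Points give the fold enrichment in each mouse, on a log scale, at the 22 sites over 100-fold in 7 or 8 lists, with circles for db/db mice, squares for lean mice and a vertical tick at each group's median. Small RNA genes under a site are in brackets, the dashed line marks 100-fold, and 15 of the 22 sites cover a small RNA gene.

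Among gene families counted by symbol, the major urinary proteins, lipocalins that carry pheromones, had sites in 3 of the 5 genes with a peak, Mup4, Mup5 and Mup6, at 8 sites in all. Cytochromes P450, oxidases of steroids, fatty acids and foreign compounds, had sites in 9 of 45 genes, ribosomal proteins in 4 of 44 and histones in 2 of 41. Across all genes the share was 1.26%. All 7 sites in ribosomal protein genes lay over a small RNA gene or within 100 bases of one. No site was found in the 147 solute carriers, 14 apolipoproteins, 19 complement genes, 8 glutathione transferases and 8 glucuronosyltransferases with a peak, nor in the 6 sulfotransferases, 7 carboxylesterases or 26 pseudogenes. Serine protease inhibitors had sites in 1 of 13 genes, zinc finger genes in 1 of 211, predicted genes in 5 of 219 and RIKEN genes in 6 of 210.

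Mup6 (620807) had the highest median fold of the 4 sites over 100-fold in all 8 lists with no small RNA gene under them, at chr4:60004814-60004887. Its folds were 2050.53, 1173.02, 645.11 and 749.73 in db/db mice 1 to 4 and 1080.81, 1667.72, 2371.9 and 2036.8 in lean mice 1 to 4. Db/db mouse 1 lay among the lean mice, and the other db/db mice included the 2 lowest. The interval was the same 74 bases in every list. Identical intervals in every list were found at 3 of the 92 sites with a peak in 6 or more lists, in Mup6, Mup4 and Eef2, and at 12 of 542 other regions so shared.

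Mup4 (17843) had 5 sites. At chr4:59956804-59957057 its folds were 756.15, 36.59, 62.3 and 47.67 in the db/db mice and 518.08, 737.12, 998.69 and 873.14 in the lean mice. At chr4:59960039-59960143 there was a peak of 68.18 in db/db mouse 1, none in the other db/db mice, and 94.77, 100.44, 224.3 and 275.73 in the lean mice. At both sites db/db mice 2 to 4 were lower than every lean mouse or had no peak, and db/db mouse 1 was within the lean range at the first and below it at the second.

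Serpina3c (16625), a serine protease inhibitor, had 3 sites. At chr12:104146914-104147053 its folds were 378.08, 59.45, 37.38 and 54.17 in the db/db mice and 121.31, 150.66, 245.67 and 177.55 in the lean mice. The highest of all was db/db mouse 1, and the other 3 db/db mice were the lowest of all. At chr12:104151441-104151654 the folds were 208.66, 13.72, 18.0 and 80.17 in the db/db mice and 93.96 to 179.43 in the lean mice, again with db/db mouse 1 highest and the other db/db mice below all lean mice.

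Cyp3a41a (53973), a cytochrome P450 of the steroid- and drug-oxidising subfamily, had a site at chr5:145717925-145717998. It had 249.87 in db/db mouse 1, no peak in db/db mice 2 to 4, and 68.24, 153.9, 210.95 and 202.62 in the lean mice. Cyp2a4 (13086), a steroid hydroxylase, had 99.58, 10.9, 10.68 and 19.27 in the db/db mice, 88.81, 115.73 and 392.53 in lean mice 1 to 3 and no peak in lean mouse 4 at chr7:26307202-26307397. The value of db/db mouse 1 was above all lean mice at Cyp3a41a and within their range at Cyp2a4, and the other db/db mice had no peak or lay below every lean mouse with one. Cyp3a44, Cyp3a16 and Cyp3a57, chosen after their values were seen, were over 100-fold in db/db mouse 1 only, with 371.88, 126.03 and 105.37. Cyp3a59 was over 100-fold in lean mouse 4 only, at 287.18, and the Cyp3a41a site within Cyp3a41b in lean mouse 2 only, at 102.06.

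The stearoyl-CoA desaturases Scd3 (30049) and Scd4 (329065), which make monounsaturated fatty acids, were over 100-fold in db/db mice only. Scd3 at chr19:44241660-44241865 had folds of 435.92, 57.16, 993.97 and 769.23 in the db/db mice, no peak in lean mouse 1 and 40.5, 26.7 and 27.16 in lean mice 2 to 4. All 4 db/db values lay above the lean values, and 3 of them were over 100-fold. Scd4 at chr19:44344738-44344916 had 1080.51, 38.87, 1067.34 and 13.0 in the db/db mice, no peak in lean mouse 1, and 22.68, 13.35 and 14.62 in the other lean mice. Db/db mice 1 and 3 were high there, db/db mouse 4 was the lowest of all, and the genotypes overlapped.

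Hsd3b4 (15495), a steroid dehydrogenase, was over 100-fold in the lean mice only. At chr3:98456435-98456524 its folds were 34.67 in db/db mouse 4 and 112.46, 439.03, 309.75 and 417.77 in the lean mice, with no peak in db/db mice 1 to 3. The site at chr3:98509875-98509964 had 34.67 and then 108.67, 429.31, 307.08 and 417.77 in the same mice. A further one at chr3:98563346-98563435 had 17.33 and then 53.07, 205.74, 152.21 and 208.88. The peaks of a mouse had equal lengths at the first and second sites. The 3 sites lay in different RefSeq genes, Gm4450, Hsd3b4 and Gm10681, and, with values this close, may not be separate results.

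The presence of a peak was compared between genotypes at all 17936 regions. Regions listed in every mouse of either genotype and in no mouse of its counterpart came to 30, or 0.167%, and among them were 3 of the 128 sites, or 2.34%. In the db/db direction there were 13 regions, or 0.0725%, and 1 site, and in the lean direction 17 regions, or 0.0948%, and 2 sites. Sites over 100-fold had a peak in more lists than other regions, so the 2 shares do not rest on like regions. Fisher's exact test gave p = 0.0286 at each of the 3 sites, the smallest that 4 against 4 mice allow, and an adjusted p of 1 over all regions. At an adjusted p under 0.05 there were 0 regions, and at an unadjusted p under 0.05 there were 30. The 128 sites were listed in equal numbers of db/db and lean mice in 79 cases, in more db/db mice in 17 and in more lean mice in 32.

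The 3 sites, named for their small number after their values were seen, were Cyp4a32, Klrc1 and Klrc2. Cyp4a32 (100040843) had folds of 49.28, 79.06, 57.44 and 195.42 in db/db mice 1 to 4 and no peak in any lean mouse. Klrc1 and Klrc2, receptors of natural killer cells, had 22.75, 25.92 and 18.8 in lean mice 1, 2 and 4 at both genes and 114.82 and 120.16 in lean mouse 3, with no peak in the db/db mice. Their peaks also had equal lengths in every lean mouse, so they may not be separate results. Each of the 3 sites was over 100-fold in a single mouse. Uneven sites numbered 5 without db/db mouse 1 or db/db mouse 4, and 1 without lean mouse 3. Both the sites over 100-fold and uneven listing were then judged on the remaining mice. The rule on listing is looser in that case, but sites over 100-fold only in the mouse left out are lost. Klrc1 and Klrc2 were lost in this way without lean mouse 3, and Cyp4a32 without db/db mouse 4.

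**Figure D4:**
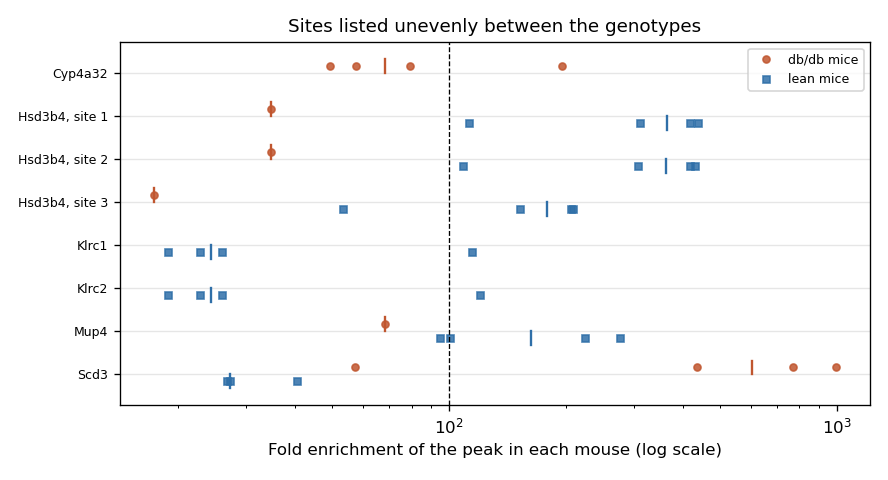
Points give the fold enrichment in each mouse with a peak, on a log scale, at the 8 sites with a peak throughout one genotype and nowhere in the other, or over 100-fold in at least 3 mice, all of one genotype. Circles are db/db mice, squares are lean mice, ticks are medians, a mouse without a peak has no point, and the dashed line marks 100-fold. The lean values at the first and second Hsd3b4 sites run from 108.67 to 439.03, and the Scd3 values of db/db mice reach 993.97.

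Length split the peaks over 100-fold. Their median was 86.94 ± 9.73 bases against 74.0 ± 10.7 for the other peaks of the same lists (SD, n = 8). It was longer in 8 of 8 lists, by a mean of 12.94 bases (exact sign-flip test, two-sided, p = 0.00781, adjusted p = 0.0104). The gap was uneven, smallest in db/db mice 1 and 3 and largest in db/db mouse 4 and lean mouse 1. Lists that share sites are not independent of each other in any of the length tests, which limits their p-values. Without peaks over small RNA genes, an alternative chosen after seeing the data, the difference was -12.69 bases (exact sign-flip p = 0.0469), so that the remaining peaks over 100-fold were shorter than the rest. Among peaks with a p of at most 1e-10, the difference was 10.56 bases (exact sign-flip p = 0.125). Sites of at most 75 bases made up 30 of the 86 sites with a peak in 7 or 8 lists, or 34.9%, and 22 of 340 other regions so shared, or 6.47%.

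The 29 narrow sites were grouped by their length, so their short peaks are no finding. The median length of their peaks was 45.0 bases in db/db mice 1 and 4 and lean mice 2, 3 and 4, 52.0 for db/db mouse 2, 53.0 for db/db mouse 3 and 65.0 for lean mouse 1. Between 58.3% and 70.8% of these peaks lay within 2 bases of that median, and the rest lay farther off, as at Egfem1, with 6 to 16 bases. The commonest length in the whole list was 45, 52, 51 and 40 bases in db/db mice 1 to 4. It was 65, 45, 45 and 44 bases in lean mice 1 to 4. That commonest length lay within 2 bases of the narrow-site median in every mouse except db/db mouse 4. Most other peaks had other lengths: 6.69% to 11.4% of them lay within 2 bases of the narrow-site median. The medians of the other peaks were 53.0 to 88.5 bases. At Ano3 the lengths were 43, 51, 51 and 43 bases in db/db mice 1 to 4 and 62, 43, 43 and 43 bases in lean mice 1 to 4, and at Trim63 44, 53, 52 and 44, and then 65, 45, 44 and 45. Lean mouse 1 had the longest peak at both, and db/db mice 2 and 3 came next.

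**Figure D5:**
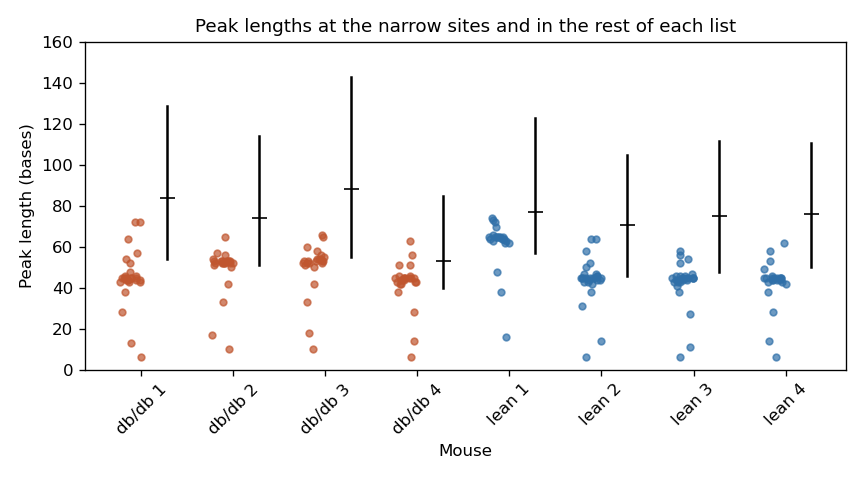
Points are the peak lengths in bases at the 29 narrow sites in each mouse, orange for db/db and blue for lean mice, spread sideways for visibility. Black lines give the median and quartiles of all other peaks of the list. The points gather at 45.0 bases in 5 mice, at 52.0 and 53.0 in db/db mice 2 and 3 and at 65.0 in lean mouse 1.

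Yipf1 (230584), a membrane protein of the Golgi, was the narrow site over 100-fold in all 8 mice, at chr4:107320076-107320142. Its folds were 2142.43, 454.65, 421.55 and 920.87 in the db/db mice and 673.51, 546.11, 529.32 and 2738.48 in the lean mice. Db/db mouse 1 and lean mouse 4 were far above the others, and the genotypes overlapped. Gss (14854), glutathione synthetase, had 481.16, 286.75, 154.83 and 223.38 in the db/db mice and 97.42, 1244.19, 322.06 and 992.2 in the lean mice at chr2:155592065-155592127. Lean mouse 1 was the only one under 100-fold, and lean mice 2 and 4 lay above all db/db mice.

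Further narrow sites were chosen after their values were seen. Ano3, a membrane protein of the anoctamin family known from neurons, had 91.37 to 431.79 among db/db and 72.03 to 307.06 among lean mice. Trim63, a ubiquitin ligase of muscle, had 84.45 to 260.31 and 63.18 to 216.29. Fundc2, a protein of the mitochondrial outer membrane, had 3025.5 for db/db mouse 1, 1082.19 for lean mouse 2 and 66.44 to 312.11 in the other 6. Tgfb1, whose first bases are printed above, had 256.37, 315.87, 379.86 and 100.89 in the db/db mice and 112.3, 53.43, 196.21 and 179.5 in the lean mice. The genotypes overlapped at all 4 of these genes.

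Of the 28 sites of no other kind, 2 were over 100-fold in every list. A230103J11Rik (320466) lies within the bounds of Tnpo2, a nuclear import receptor, at chr8:85053465-85053756. Its folds were 311.79, 613.08, 1148.11 and 604.36 in the db/db mice and 2261.14, 483.11, 668.08 and 771.43 in the lean mice, with the highest value and the longest peak, 292 bases, both in lean mouse 1. Pradc1 (73327), a secreted glycoprotein, had 391.68, 434.56, 1002.28 and 294.89 in the db/db mice and 272.72, 446.64, 355.18 and 431.68 in the lean mice. Db/db mouse 3 was highest and the other mice of both genotypes overlapped. Wtap, a subunit of the m6A writer complex and chosen after its values were seen, was over 100-fold in db/db mouse 1 only, at 361.55, with 12.04 in db/db mouse 3 and 68.94 and 20.89 in lean mice 3 and 4.

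The names given to the sites did not always match the annotation. Of 119 sites whose gene ID was matched in RefSeq, 109, or 91.6%, overlapped the bounds of the named gene, and 9 sites had no matched ID. Those outside included Klrc2, Ephx1, Tlcd1, Hoxb4, the Snord88a site over LOC115486842 and a Cyp3a41a site within Cyp3a41b.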

How the data were processed

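The files were 8 peak lists, 1 per immunoprecipitated library, with mice not pooled, and, per the file headers, peak names of the MACS kind. The 8 input libraries were not analysed here. Per the submitters' processing notes, cutadapt 1.9.3 and HISAT2 2.0.4 were used on build mm10. The version and settings of the peak caller are not given in the sources used here. Fold enrichment is a ratio deposited by the authors per peak, and the deposited score is -10 times the log10 of the p-value, with a smallest score of 50. Peak length, in bases, was deposited too, and 8 columns, 1 per list, were not used. Depth was unknown.

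Members and lists were chosen with earlier results of these data known. Peaks sharing at least 1 base within a gene were merged. Small RNA genes of up to 400 bases came from RefSeq (GRCm38.p6). Values per mouse were compared by exact permutation over 70 assignments, members with the rest of their list by exact sign-flips over 256 patterns (adjusted over the 4 tests, Benjamini-Hochberg), and presence per region by Fisher's exact test adjusted over 17936 regions. The functions were tested on simulated data. Python 3.11.15, pandas 2.3.3 and scipy 1.17.1 were used.

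Sites were named by a rule: the first 20 by number of lists over 100-fold and then median fold, up to 2 of each symbol stem with 3 or more sites, those over a small RNA gene in 2 or more lists, those over 100-fold in 3 or more mice, all of one genotype, and the 3 peaks on either side of the threshold. Gene families were counted by symbol. Alternatives changed the fold, the hosts left out, the merging, the definition of a small RNA gene and the mice included.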

Additional observations from a re-analysis of the deposited data

Results flagged for a closer look

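In 73 groups of 4 mice of one genotype, 8 values stood far from the other 3 mice of their group. The groups did not cover all sites over 100-fold, so the 8 values are no count over all of them. Chance flags about 1 in 20 groups in general, but these sites were chosen for a high fold in at least 1 mouse, so that rate does not apply and the values are a description. Db/db mouse 1 held 4 of the 8. Its folds were 756.15 at the Mup4 site at 59956804, against 36.59 to 62.3 in the other db/db mice, 378.08 at the first Serpina3c site, against 37.38 to 59.45, 1812.49 at Tmem38b, against 47.59 to 97.34, and 99.58 at Cyp2a4, against 10.68 to 19.27. Lean mouse 3 had 779.19 at Tmem38b, against 52.46 to 159.15 in the other lean mice. Lean mouse 1 had 2261.14 at A230103J11Rik, against 483.11 to 771.43, and lean mouse 4 had 2738.48 at Yipf1, against 529.32 to 673.51. Db/db mouse 2 was low at the AK085695 site over LOC115487308, at 436.66, against 788.11 to 830.65. What sets these mice apart at these sites was not tested.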

How the results depend on the processing

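With fold limits of 50 and 200, the sites numbered 287 and 69, those listed unevenly between the genotypes 6 and 0, and those with a peak in all 8 lists 104 and 43 (43 being a change of over 1.5 times from 70). Restricting the lists to peaks with a p of at most 1e-10 left a length difference of 10.56 bases (exact sign-flip p = 0.125), and leaving out peaks over small RNA genes turned it to -12.69. The cause was not tested. Leaving out each mouse gave differences of -16.75 to -4.083 peaks between genotypes, 33.83 to 37.29 percentage points in small RNA overlap, 10.21 to 14.64 bases in length and 3.924 to 4.085 other lists, 103 to 128 sites, 69 to 71 with a peak in every remaining list, and 1 to 5 listed unevenly. Fewer other lists remain to overlap in these runs, so the values cannot be set beside the main 4.692. The sites over 100-fold were then chosen again from the remaining mice, and uneven listing was judged on those mice, a looser rule. Keeping the 7 host genes gave 141 sites. Taking the 40 peaks of highest fold per list fixes the number of peaks, so it was not run for that comparison. A replicate block on the mouse numbers gave the same -8.5 peaks with p = 0.5 (exact test over pairs). Same-numbered mice correlated at -0.0428, 0.0311, -0.0134 and -0.00854 over 3981 regions, and differently numbered mice at -0.0408 to 0.0568. These values gave no sign of pairing by number, but low correlations cannot exclude it. Lists without depth limit all statements on missing peaks.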

Other observations

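The folds of a list were often whole multiples of one step, a pattern looked for after seeing the data. The step, fitted per list, lay between 1.264 and 2.287. Within a tolerance of 0.02, 41.7% to 71.0% of the peaks between 100-fold and 300-fold were whole multiples of their list's step, against 22.4% to 27.9% of peaks under 100-fold. A tolerance of that width covers 1.75% to 3.17% of all values. A fold of 100 equals 43.7 to 79.1 steps, depending on the list. Where these steps come from was not tested.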
